A study of Mus musculus with 9 samples.

Results

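The genes described here are the 10 voltage-gated calcium channel alpha1 subunits of the mouse, Cacna1a, Cacna1b, Cacna1c, Cacna1d, Cacna1e, Cacna1f, Cacna1g, Cacna1h, Cacna1i and Cacna1s, taken by symbol from 23038 genes in the deposited tables. All 10 were present. They were measured by RNA-seq in 9 libraries of fluorescence-sorted sensory neurons from neonatal mouse dorsal root ganglia (DRG), in 3 groups of 3. The mutant PV group (Rx3-/-;PV:tdT) carried a Runx3 mutant allele on both chromosomes together with PV:Cre and a Cre-dependent tdTomato reporter, and was labelled RA-LTMRs, the rapidly adapting low-threshold mechanoreceptors, because proprioceptors are lost in Runx3 mutants. Its samples came from postnatal days 3, 0 and 0, from 1, 1 and 4 animals. The wild-type PV group (Rx3+/+;PV:tdT) carried the same driver and reporter with intact Runx3, and was labelled proprioceptors and RA-LTMRs. Its samples came from days 6, 4 and 3, from 4, 3 and 3 animals. The TrkC group (TrkC:GFP) carried a GFP transgene on a bacterial artificial chromosome and was labelled proprioceptors and SA-LTMRs, the slowly adapting type. Its samples came from days 6, 2 and 1, from 4, 2 and 4 animals. All animals were of mixed C57/Sv129 background and both sexes. The tdTomato line is given as Ai9 in the design text and as Ai14 in the genotype labels. Nothing in the labels ties a sample of one group to one of another, and whether samples of a group shared litters or sorting days is not given, so the tests rest on the spread between these samples, which may in part be technical. Age and Runx3 genotype differed together between the PV groups, and their effects cannot be told apart. Between the TrkC and mutant PV groups, age, the Runx3 mutation, the transgenes and the labelled cell types all differed together. Their effects cannot be told apart either.

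An alpha1 subunit forms the pore and the voltage sensor of a calcium channel, and the auxiliary alpha2delta and beta subunits bring it to the membrane and set its gating. The family falls into L-type channels (Cav1: Cacna1s, Cacna1c, Cacna1d, Cacna1f), the P/Q-, N- and R-type channels of nerve terminals (Cav2: Cacna1a, Cacna1b, Cacna1e) and low-voltage-activated T-type channels (Cav3: Cacna1g, Cacna1h, Cacna1i), which open near the resting potential and shape firing threshold. In DRG, Cav2.2 is known for transmitter release from sensory terminals, and Cav3.2 for the excitability of low-threshold mechanoreceptors.

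The T-type members, which include the gene with the largest fold change of the 10, are set apart from the others in the coding sequence of the pore. Ion selectivity rests on 1 acidic residue in each of the 4 repeats of the protein. In the GENCODE M21 transcripts (GRCm38), 7 members had a glutamate codon (GAA or GAG) at that place in all 4 repeats, and the 3 T-type members had an aspartate codon (GAC or GAT) in repeats III and IV. The 21 bases around the codon of repeat IV are shown 5′ to 3′ on the coding strand for the 6 members whose values differed most between groups or were highest, with the codon in capitals.
Cacna1h, T-type (chr17:25377771-25377791, minus strand): actgggGACaactggaatggg
Cacna1i, T-type (chr15:80388491-80388511, plus strand): acaggcGATaactggaatggg
Cacna1g, T-type (chr11:94416415-94416435, minus strand): actggtGACaactggaatggt
Cacna1a, P/Q-type (chr8:84611605-84611625, plus strand): acaggaGAAgcgtggcacaac
Cacna1b, N-type (chr2:24635213-24635233, minus strand): actgggGAGgcctggcatgag
Cacna1s, L-type (chr1:136107024-136107044, plus strand): acagggGAAgcctggcaagag

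The tables hold 1 RPKM per gene and group, a read count divided by the gene's length in kilobases and by the counted reads of the library in M. Each deposited value equals the mean RPKM of 3 libraries, with a library without reads counted as 1 read, so that whole reads per library could be recovered for all 10 members. Values per library below count such a library as 0. Libraries are named by depth within a group, since they cannot be tied to a replicate number, an age or an animal. RPM is the same value without the division by length, used where a single gene or a list is followed across libraries. Counted reads were 12.8, 12.2 and 4.51 M in mutant PV, 13.7, 12.2 and 11.6 M in wild-type PV and 12.2, 10.5 and 7.78 M in TrkC libraries, deepest first, and values below keep that order of libraries within a group. The targeted gene Runx3 was at 52.2, 69.6 and 47.4 RPM in mutant PV libraries, against 145, 126 and 110 in wild-type PV and 134, 143 and 147 in TrkC libraries. Reads over the whole gene are summed, so this does not show whether the disrupted part was transcribed. The proprioceptor list of 10 genes, of which 8 had recovered reads, summed to between 132 and 179 RPM in mutant PV libraries, between 496 and 686 in wild-type PV and between 600 and 820 in TrkC libraries. The list of 10 RA-LTMR and D-hair genes summed to between 2579 and 2977 in mutant PV, between 399.8 and 592 in wild-type PV and between 237 and 335 in TrkC libraries. The proprioceptor sum includes Pvalb, the gene of the PV:Cre driver, and Runx3, the mutated gene, so it is no separate check of the labels. In the authors' deposited table of wild-type PV over mutant PV, 9 of the 10 proprioceptor genes were lower in mutants and 1, Pou4f3, was higher. Of the 10 RA-LTMR and D-hair genes, 8 were higher in mutants in that table and 0 lower. Sums over markers of other cells also differed between the mutant PV and the other groups. The 12 nociceptor, itch and C-LTMR genes summed to between 963 and 1255 RPM in mutant PV, between 185 and 338 in wild-type PV and between 155 and 340.4 in TrkC libraries. Most of that mutant PV sum was P2rx3, an ATP-gated channel of nociceptors. By the authors' deposited table, of the 12 genes 5 were higher in mutant PV than in TrkC neurons and 2, Slc17a8 and Trpm8, were lower. Against wild-type PV neurons the authors' deposited table has 5 higher in mutants, Calca, Scn10a, P2rx3 and Th among them, and 3 lower, Tac1, Trpv1 and Trpm8. The 10 genes of Schwann cells and satellite glia summed to between 934.5 and 1138 RPM in mutant PV, between 512 and 681 in wild-type PV and between 521 and 829.9 in TrkC libraries. Of these, the authors' deposited table has Pmp22 higher and Mbp lower in mutants against either other group. Kidney genes summed to 86.2 and 118 in the 2 deeper mutant PV libraries and to 9.76 in the shallowest, against at most 5.82 in wild-type PV and 12.4 in TrkC libraries. Most of the sum in these 2 libraries was 1 gene of the list, Ren2, at 50.0 and 69.8. It had no reads in the shallowest mutant PV library or in any library of the other groups. Of the 9 kidney genes, the authors' deposited table has 8 higher in mutants against wild-type PV and 5 against TrkC neurons, Ren2 among them, and 0 lower in either. The part of these markers in the results on the channel genes was not tested. In such sorted samples of many cells, fewer cells of a type and less RNA per cell cannot be told apart.

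The clearest pattern was in the T-type genes, where Cacna1h was high and Cacna1i almost absent in mutant PV neurons. Cacna1h encodes Cav3.2 (chr17:25374285-25436334, GRCm38.p6). It had 26.6, 30.9 and 22.9 RPKM in mutant PV libraries, 4.53, 1.36 and 2.84 in wild-type PV libraries and 3.46, 1.13 and 4.04 in TrkC libraries. Every mutant PV library lay above every library of the other groups, while the wild-type PV and TrkC libraries overlapped. The means were 26.8 ± 4.03 RPKM in mutant PV, 2.91 ± 1.59 in wild-type PV and 2.88 ± 1.54 in TrkC neurons (SD, n = 3 each), and mean RPM in mutant PV neurons were 9.22-fold those in wild-type PV and 9.32-fold those in TrkC neurons. The authors' deposited table gives log2 fold changes of -3.20 for wild-type PV over mutant PV (edgeR, Benjamini-Hochberg adjusted p = 2.1e-19) and -3.22 for TrkC over mutant PV (adjusted p = 3.4e-16), so that the gene was higher in mutants. The difference in mean log2(RPM + 0.1) was -3.35 (SE 0.52) for wild-type PV minus mutant PV and -3.40 (SE 0.59) for TrkC minus mutant PV. Between wild-type PV and TrkC neurons the authors' deposited table gives a log2 fold change of 0.02 (edgeR adjusted p = 1).

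Cacna1i, which encodes Cav3.3 (chr15:80287238-80398292), had the opposite pattern. It had 2, 0 and 0 reads in mutant PV libraries, 356, 352 and 310 in wild-type PV libraries and 346, 318 and 204 in TrkC libraries. That is 0.0158, 0 and 0 RPKM in mutant PV, 2.62, 2.93 and 2.71 in wild-type PV and 2.87, 3.06 and 2.66 in TrkC neurons. The wild-type PV and TrkC libraries formed 1 narrow range and the mutant PV libraries stood apart from it. Pooled over the libraries of a group, reads per counted read in wild-type PV were 401 times those in mutant PV libraries, with an exact 95% interval of 111 to 3318, and in TrkC 419.6 times, with an interval of 116 to 3470. These intervals cover counting error only. In the authors' deposited table the log2 fold changes over mutant PV were 8.44 for wild-type PV (edgeR adjusted p = 3.5e-53) and 8.47 for TrkC (adjusted p = 2.7e-45).

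Cacna1g, which encodes Cav3.1 (chr11:94408391-94474400), was low in all groups. It had 4, 2 and 1 reads in mutant PV libraries, 65, 39 and 34 in wild-type PV and 16, 21 and 18 in TrkC libraries. No 2 groups overlapped in RPM. The ratio of the pooled rates over mutant PV was 15.5 for wild-type PV (exact 95% interval 7.34 to 39.4) and 7.60 for TrkC neurons (3.45 to 19.8). The authors' deposited table gives log2 fold changes of 3.88 for wild-type PV over mutant PV (edgeR adjusted p = 1.5e-07) and 2.91 for TrkC over mutant PV (adjusted p = 0.0029). Wild-type PV over TrkC had a log2 fold change of 0.98 (edgeR adjusted p = 0.17) by the authors' deposited table, which did not pass 0.05.

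**Figure D1:**
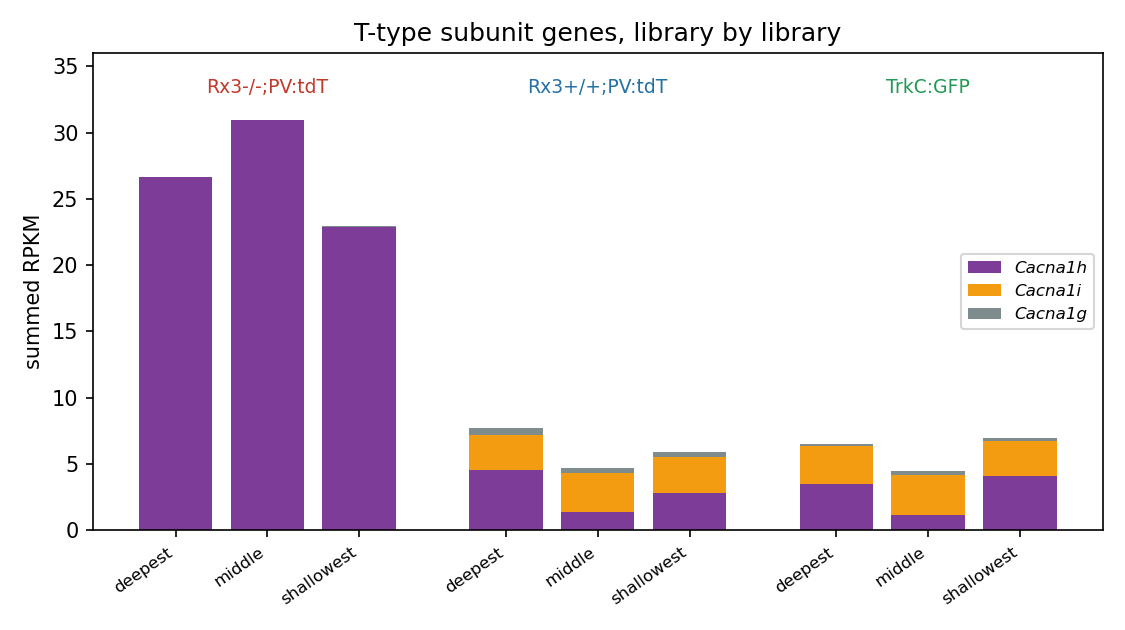
Summed RPKM of the T-type genes Cacna1h, Cacna1i and Cacna1g in each of the 3 libraries of a group, ordered by depth. Mutant PV bars are almost all Cacna1h, at 22.9 to 30.9 RPKM, and the bars of the other groups divide mainly between Cacna1h and Cacna1i.

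The T-type genes together summed to 26.9 ± 4.02 RPKM in mutant PV, 6.11 ± 1.53 in wild-type PV and 5.97 ± 1.35 in TrkC neurons (SD, n = 3 each). Cacna1h made up 99.8%, 99.9% and 99.9% of that sum in mutant PV libraries. It made up 58.6%, 29.0% and 48.0% in wild-type PV and 53.3%, 25.5% and 57.9% in TrkC libraries. Cacna1i made up 33.9%, 62.6% and 45.9% in wild-type PV and 44.2%, 69.0% and 38.0% in TrkC libraries. The plot of T-type genes by library shows that Cacna1h differed more between the libraries of these groups than Cacna1i did. The middle libraries of the wild-type PV and TrkC groups, with the lowest Cacna1h, were also the lowest of their groups for the nociceptor, itch and C-LTMR list, at 185 and 155 RPM, and the highest for the proprioceptor list, at 686 and 820 RPM. For the RA-LTMR and D-hair list the middle library was the lowest of the wild-type PV group, at 399.8 RPM, and the highest of the TrkC group, at 335 RPM. The middle libraries were also lowest in both groups for endothelial and mural genes (6.25 and 10.5 RPM) and kidney genes (2.96 and 8.45 RPM). They were lowest for glia genes in wild-type PV only, for immature neuron genes in TrkC only, and for muscle genes in neither. The low values of these libraries were thus not particular to the nociceptor list. Among single genes 2 receptors from the nociceptor and RA-LTMR lists are given, both chosen after their values were seen. P2rx3 is part of the nociceptor, itch and C-LTMR sums above and not separate from them. The sodium leak channel gene Nalcn, which was lower in mutants, was also lowest in the middle library of the wild-type PV and TrkC groups. Ntrk2, the receptor for BDNF and a marker of RA-LTMRs and D-hair neurons, was at 558, 743 and 457 RPM in mutant PV, 82.4, 30.7 and 62.4 in wild-type PV and 50.3, 13.7 and 26.9 in TrkC libraries. P2rx3 was at 994, 790 and 786 in mutant PV, 187, 61.1 and 161 in wild-type PV and 214, 77.0 and 178 in TrkC libraries. The part of any listed cell type in the Cacna1h values was not tested.

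Cacna1a, the pore of P/Q-type channels at nerve terminals (chr8:84338631-84640251), was the highest member in mutant PV neurons. It had 31.6, 33.9 and 40.7 RPKM in mutant PV, 18.9, 19.1 and 18.3 in wild-type PV and 15.5, 19.3 and 17.2 in TrkC libraries. All mutant PV libraries were above all others, and the other groups overlapped. Mean RPM in mutant PV neurons were 1.89-fold those in wild-type PV and 2.05-fold those in TrkC neurons. The authors' deposited table gives log2 fold changes of -0.92 for wild-type PV over mutant PV (edgeR adjusted p = 1.3e-06) and -1.03 for TrkC over mutant PV (adjusted p = 5.4e-06).

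Cacna1b, the pore of N-type channels (chr2:24603860-24763200), had 26.4, 36.7 and 39 RPKM in mutant PV, 22.6, 19.8 and 21.1 in wild-type PV and 24.3, 25.0 and 30.2 in TrkC libraries. The mutant PV libraries overlapped with TrkC but not with wild-type PV libraries. In the authors' deposited table it was higher in mutant PV than in wild-type PV neurons (log2 fold change of wild-type over mutant -0.68, edgeR adjusted p = 0.0026). For TrkC over mutant PV the authors' deposited table gives -0.36 (edgeR adjusted p = 0.37). Cacna1e, the R-type pore (chr1:154390806-154884785), stayed under 1 RPKM in every library, between 0.669 and 0.992 in mutant PV, between 0.604 and 0.887 in wild-type PV and between 0.360 and 0.878 in TrkC libraries. The ranges overlapped in all pairs and no comparison called it.

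Of the L-type genes, Cacna1c, which encodes Cav1.2 (chr6:118587240-119197384), had 6.95, 7.41 and 5.03 RPKM in mutant PV, 4.22, 4.83 and 4.21 in wild-type PV and 6.43, 6.09 and 7.75 in TrkC libraries. Wild-type PV libraries were the lowest, and mutant PV and TrkC libraries overlapped. The authors' deposited table gives log2 fold changes of -0.56 for wild-type PV over mutant PV (edgeR adjusted p = 0.048) and -0.61 (adjusted p = 0.018) for that group over TrkC. For TrkC over mutant PV the authors' deposited table gives 0.06 (edgeR adjusted p = 1). Cacna1d, which encodes Cav1.3 (chr14:30039941-30491156), had 4.01, 8.11 and 3.94 RPKM in mutant PV, 4.00, 3.52 and 3.65 in wild-type PV and 3.46, 3.59 and 4.90 in TrkC libraries. Its mutant PV mean of 5.35 ± 2.39 RPKM rested on the middle library, and no comparison called it.

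Cacna1s, the Cav1.1 channel of skeletal muscle (chr1:136052806-136119822), had 4, 0 and 0 reads in mutant PV, 16, 22 and 11 in wild-type PV and 34, 40 and 20 in TrkC libraries. It was low everywhere, with the 3 groups apart from each other in RPM. The ratio of the pooled rates over mutant PV was 9.66 for wild-type PV (exact 95% interval 3.54 to 36.9) and 22.7 for TrkC neurons (8.59 to 85.1). The authors' deposited table gives log2 fold changes over mutant PV of 3.23 for wild-type PV (edgeR adjusted p = 0.0024) and 4.43 for TrkC (adjusted p = 1.4e-06), and of -1.22 for wild-type PV over TrkC (adjusted p = 0.061). The 10 skeletal muscle markers summed to between 4.21 and 5.83 RPM in mutant PV, between 31.4 and 46.4 in wild-type PV and between 44.2 and 58.0 in TrkC libraries. Most of the wild-type PV sum was 1 gene, Tnni1, slow troponin I, at 42.6, 41.9 and 26.6 RPM. In TrkC libraries Tnni1 was at 43.4, 27.4 and 30.3 RPM. In the authors' deposited table of TrkC over mutant PV, 3 of the 10 markers were lower in mutants (Myh8, Tnni1 and Mb) and 1, Des, was higher. In that of wild-type PV over mutant PV, Tnni1 was lower in mutants and Des higher, by the authors' deposited table, and the other 8 were not called. The part of muscle RNA in the Cacna1s values was not tested. Exons of Cacna1s overlap the antisense gene Gm37759 over 1309 bases, and whether counting used strand is not given, so reads of the 2 cannot be told apart. Cacna1f, the retinal Cav1.4 channel (chrX:7607103-7635196), had 14, 27 and 0 reads in mutant PV, 7, 8 and 5 in wild-type PV and 7, 11 and 11 in TrkC libraries. The mutant PV libraries spanned the range of the others, and no comparison called it. Smaller exon overlaps with genes on the opposite strand are present for Cacna1a (Gm16183, 435 bases), Cacna1d (Chdh, 589 bases) and Cacna1h (Tpsg1, 158 bases).

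**Figure D2:**
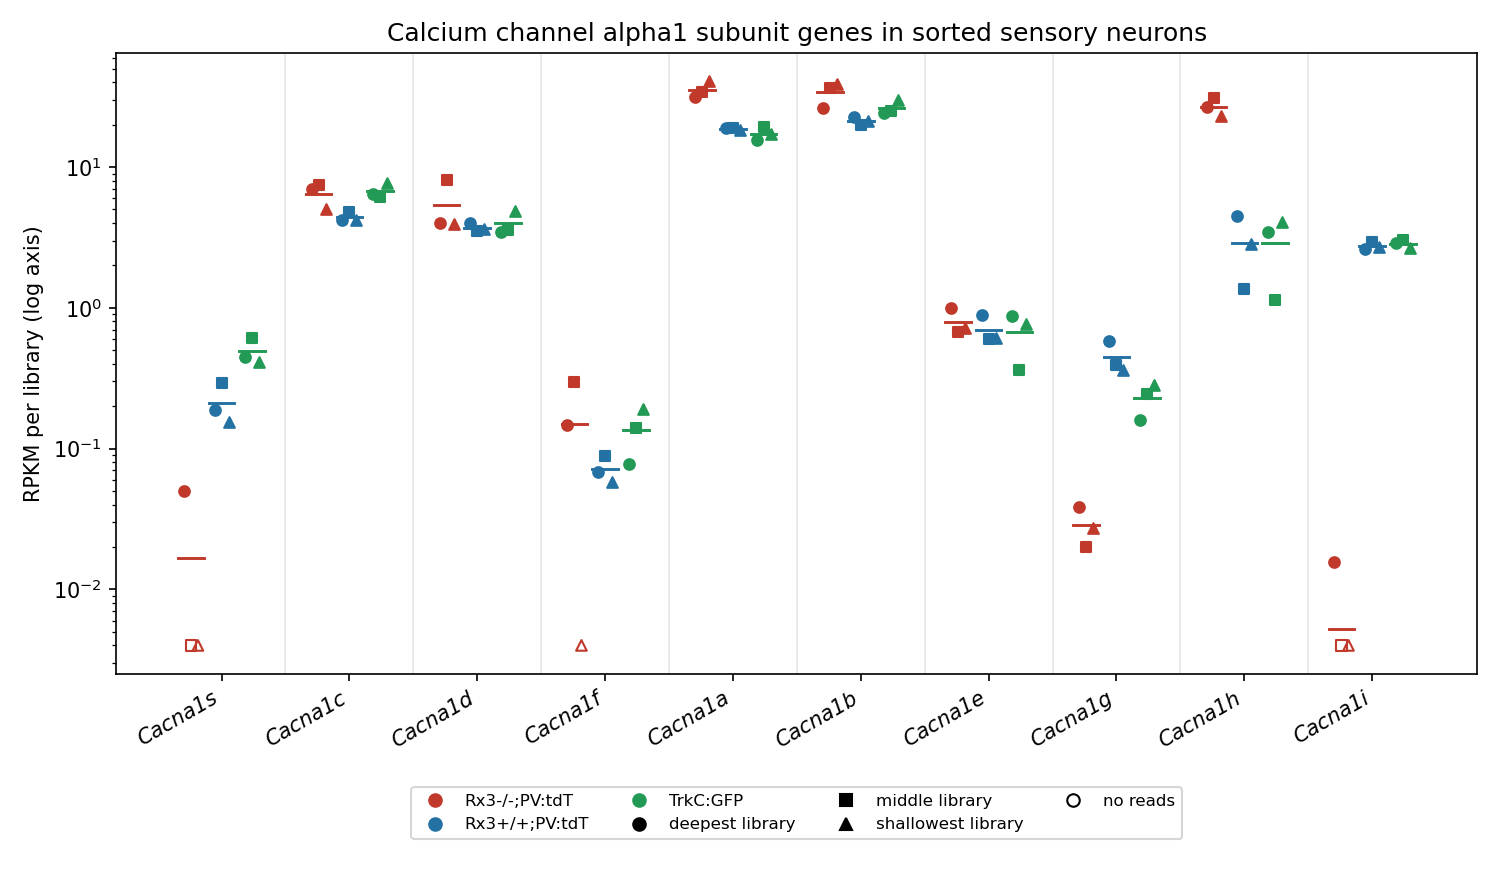
RPKM of each alpha1 gene in each library on a log axis, L-type genes on the left, then P/Q-, N- and R-type, then T-type genes, with group means as lines and libraries without reads as open symbols drawn at a fixed height near the bottom. Cacna1a and Cacna1h were higher in all mutant PV libraries, and Cacna1i, Cacna1g and Cacna1s were at or near 0 there.

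Ordered by mean RPKM, mutant PV neurons had Cacna1a, Cacna1b and Cacna1h first, neighbours whose libraries overlapped, and Cacna1h stood apart from Cacna1c, the next. In wild-type PV neurons the order was Cacna1b, Cacna1a, Cacna1c, Cacna1d, Cacna1h, Cacna1i, Cacna1e, Cacna1g, Cacna1s and Cacna1f. There Cacna1d overlapped with Cacna1h and Cacna1h with Cacna1i, and the other neighbours were apart. TrkC neurons had the same first 7 genes in the same order, then Cacna1s, Cacna1g and Cacna1f, with overlaps between Cacna1d and Cacna1h, Cacna1h and Cacna1i, Cacna1e and Cacna1s, and Cacna1g and Cacna1f. Cacna1h thus ranked 3 of 10 in mutant PV and 5 of 10 in the other groups, and Cacna1i ranked 10 in mutant PV and 6 in the others. Below Cacna1e in mutant PV neurons came Cacna1f, Cacna1g, Cacna1s and Cacna1i, neighbours whose libraries overlapped. All 10 genes summed to 109 ± 11.0 RPKM in mutant PV, 55.1 ± 3.07 in wild-type PV and 61.8 ± 5.79 in TrkC neurons (SD, n = 3 each). T-type genes made up 24.7% ± 3.81 of that sum in mutant PV, 11.0% ± 2.16 in wild-type PV and 9.64% ± 1.97 in TrkC neurons. The shares of P/Q-, N- and R-type genes were 64.3% ± 6.34, 73.7% ± 1.17 and 72.0% ± 2.59 in mutant PV, wild-type PV and TrkC neurons. An exact permutation test of 3 against 3 libraries cannot give a two-sided p below 0.1, so none is given for these sums.

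A gene was called at an edgeR adjusted p below 0.05. The authors' deposited table of TrkC over mutant PV called 5 of 10 members, against 10.1% of all 23038 genes. Cacna1a and Cacna1h were higher in mutant PV neurons, as were 4.2% of all genes, and Cacna1g, Cacna1i and Cacna1s were lower, as were 5.87% of all genes. The authors' deposited table of wild-type PV over mutant PV called 7 of 10, against 16.4% of all genes. These were the same 5 in the same directions with Cacna1b and Cacna1c, so that 4 were higher in mutants, as were 8.57% of all genes, and 3 were lower, as were 7.82%. The authors' deposited table of wild-type PV over TrkC called 1 of 10, Cacna1c, against 2.78% of all genes, with 0.699% higher in wild-type PV neurons and 2.08% lower there. In that comparison 4 of 10 members had an unadjusted edgeR p under 0.05 in the authors' deposited table. The share of all genes under that unadjusted threshold was not computed, so nothing is read from this count. By the authors' own stricter flag the 3 comparisons marked 3, 2 and 0 members, against 4.86%, 6.52% and 0.712% of all genes. With a 2-fold change required as well, they called 5, 4 and 0, against 7.47%, 10.3% and 1.78%. At a threshold of 0.01 they called 5, 6 and 0, against 6.98%, 10.8% and 1.32%. With the adjustment made over genes of a mean log2 CPM of 0 or more, they called 5, 6 and 2, against 17.3%, 28.1% and 5.46% of the genes kept. The median log2 fold changes of the 10 members were -0.25, -0.54 and -0.07 in these 3 comparisons, where all genes had medians of 0, 0 and -0.03. The first pair of comparisons shares the mutant PV libraries. In the authors' deposited table of TrkC over both PV groups pooled, which called 0.456% of all genes, 0 of 10 members were called and 3 had an unadjusted edgeR p under 0.05. These were Cacna1h, with a log2 fold change of -2.37 (edgeR adjusted p = 0.23), Cacna1a at -0.64 (adjusted p = 0.68) and Cacna1s at 2.04 (adjusted p = 0.33), all from the authors' deposited table. For this unadjusted count too, the share of all genes was not computed.

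**Figure D3:**
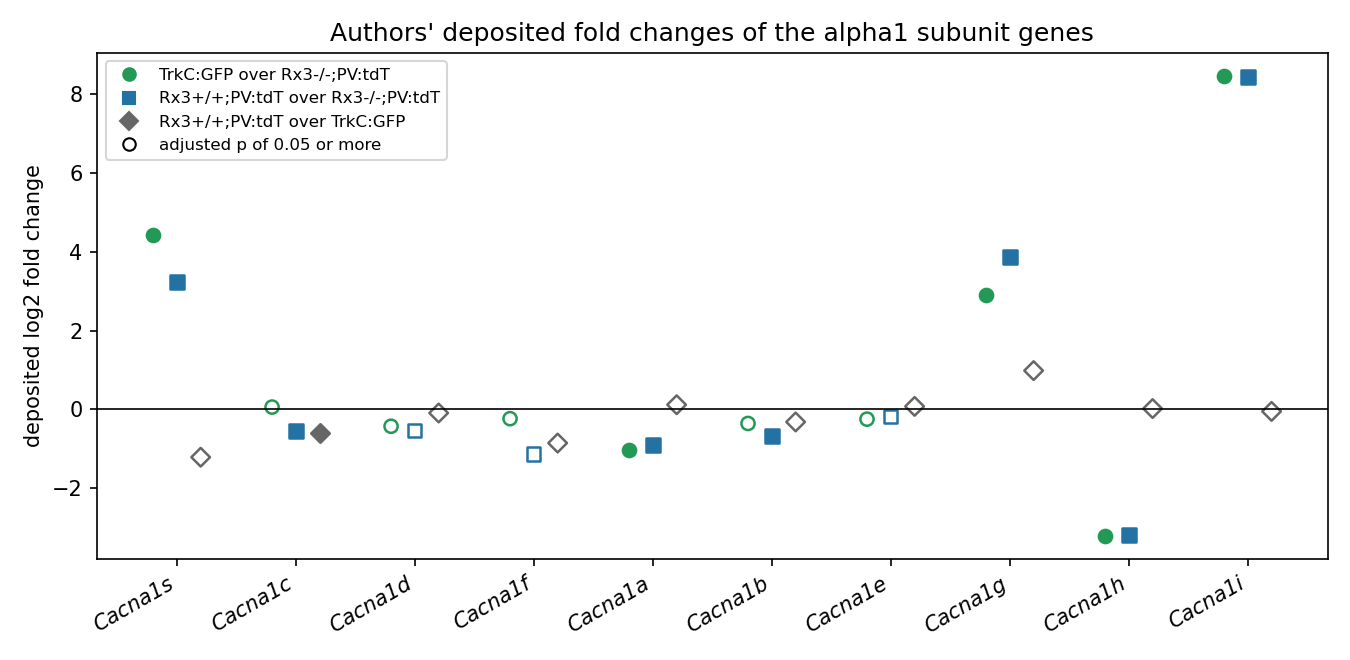
Deposited edgeR log2 fold change of each alpha1 gene in the 3 comparisons, with filled symbols at an adjusted p under 0.05. Values above 0 mean lower in mutant PV neurons for the circles and squares, and Cacna1i at 8.47 and 8.44 and Cacna1h at -3.22 and -3.20 lie farthest from 0 on either side.

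The auxiliary subunits, regulators and partners of these channels were read from a list of 34 genes. It also holds Nalcn, a separate sodium leak channel, which is counted below. The authors' deposited table of TrkC over mutant PV called 6 of them higher and 2 lower in mutant PV neurons, where 4.2% of all genes were higher and 5.87% lower. That of wild-type PV over mutant PV called 7 higher and 4 lower in mutants, against 8.57% and 7.82% of all genes. That of wild-type PV over TrkC called 0 of 34, against 2.78% of all genes, with 4 of 34 at an unadjusted edgeR p under 0.05. No share of all genes was computed for the unadjusted threshold. The medians of the list were log2 fold changes of 0.18, 0.03 and 0.01, so that they lay above 0 although more of the called genes were higher in mutants. The auxiliary genes Cacnb3, Cacnb1, Cacna2d2, Cacna2d3 and Cacng2 were among those higher in mutants in both comparisons. Cacnb3, a beta subunit of neuronal channels, was at 217, 187 and 224 RPM in mutant PV, 108, 71.4 and 89.6 in wild-type PV and 109, 85.5 and 87.1 in TrkC libraries. Cacnb1, another beta subunit, was at 31.6, 37.3 and 33.9 in mutant PV, 14.9, 9.22 and 12.4 in wild-type PV and 16.2, 13.6 and 15.4 in TrkC libraries. Cacna2d2, an alpha2delta subunit, was at 123, 147 and 126 in mutant PV, 78.0, 58.4 and 65.6 in wild-type PV and 59.6, 52.4 and 54.8 in TrkC libraries. Cacng2, of the TARP family that also regulates glutamate receptors, was at 44.0, 39.5 and 32.6 in mutant PV, 15.3, 7.08 and 13.6 in wild-type PV and 9.98, 16.2 and 3.98 in TrkC libraries. In all 4 genes the mutant PV libraries lay above every other library. These 4, like Ryr3 and Nalcn below, were named for their small edgeR p, so that this separation is no separate support. Cacnb2, also a beta subunit, went the other way, at 4.90, 1.97 and 5.99 in mutant PV, 19.6, 14.4 and 13.5 in wild-type PV and 16.9, 14.1 and 15.9 in TrkC libraries. The authors' deposited table has Cacnb3 at log2 fold changes of -1.22 for wild-type PV over mutant PV (edgeR adjusted p = 9.5e-09) and -1.15 for TrkC over mutant PV (adjusted p = 3.7e-07). For Cacnb2 the authors' deposited table gives 1.93 (edgeR adjusted p = 3.8e-05) and 1.91 (adjusted p = 0.00022).

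Of the other channels on the list, Ryr3, a calcium release channel of the endoplasmic reticulum, was at 80.6, 105 and 82.3 RPM in mutant PV, 9.83, 4.94 and 13.3 in wild-type PV and 15.8, 6.07 and 16.6 in TrkC libraries. Its log2 fold changes in the authors' deposited table were -3.26 for wild-type PV over mutant PV (edgeR adjusted p = 9.5e-25) and -2.81 for TrkC over mutant PV (adjusted p = 2.6e-15). Ryr3, Cacnb3, Cacnb1 and Cacna2d2, like Cacna1h, were lowest in the middle library of both other groups. Nalcn, the sodium leak channel, was at 32.5, 54.6 and 63.4 in mutant PV, 143, 141 and 143 in wild-type PV and 138, 118 and 121 in TrkC libraries. It was lower in every mutant PV library than in any other, and the authors' deposited table gives log2 fold changes of 1.52 for wild-type PV over mutant PV (edgeR adjusted p = 2.0e-09) and 1.33 for TrkC over mutant PV (adjusted p = 4.5e-06).

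**Figure D4:**
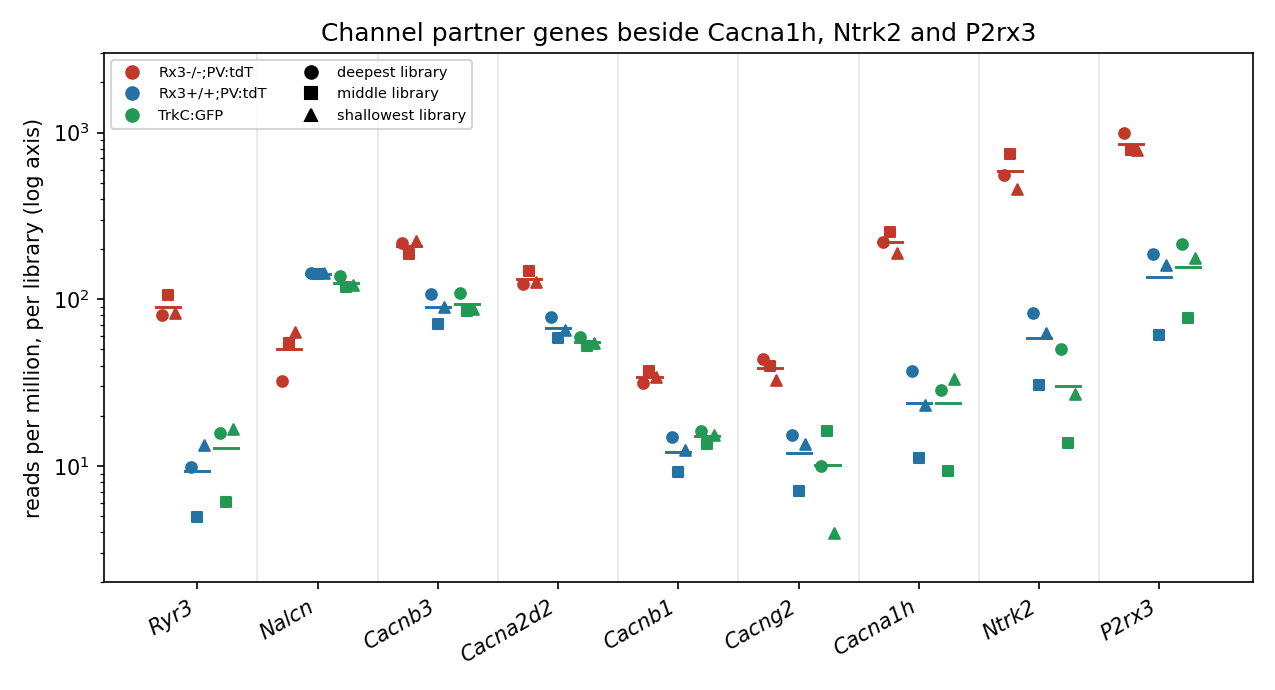
RPM of 6 genes of the partner list, the sodium leak channel gene Nalcn among them, and of Cacna1h, Ntrk2 and P2rx3 in each library. The axis is logarithmic, with group means as lines. Nalcn is lower in the mutant PV libraries, at 32.5 to 63.4, and the other genes are higher there; in the wild-type PV and TrkC groups the squares, the middle libraries, are the lowest for each gene plotted except Cacng2 in the TrkC group.

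The genes nearest in pattern were taken by Euclidean distance between log2 group RPKM profiles, each centred on its mean over the 3 groups, among 13236 genes with at least 1 RPKM in a group. With 3 points per profile many genes lie close, and the distance describes these group values only. The profiles use the deposited RPKM, in which a library without reads counts as 1 read, so distances from genes near 0 in mutants rest in part on that 1 read. For Cacna1i the deposited mutant PV value was 0.0155 RPKM, against a mean of 0.00526 over the libraries, and for Cacna1s 0.0331 against 0.0167. Nearest to Cacna1i was Kcnip2, an auxiliary subunit of Kv4 potassium channels, at a distance of 0.17, with 0.198 RPKM in mutant PV, 32.9 in wild-type PV and 31.1 in TrkC neurons. Trpm8, the cold-sensing channel (distance 0.56), and Myom3 (0.61) followed. Nearest to Cacna1h were Fas, a death receptor, Col11a1, a collagen chain, and Gpihbp1, at distances between 0.04 and 0.06. Col11a1 had 14.1 RPKM in mutant PV, 1.58 in wild-type PV and 1.5 in TrkC neurons. Nearest to Cacna1g were Bmp5, Lipk and Cdh7, and nearest to Cacna1s were Cckar, 1700071K01Rik and Hmgn2. Nearest to Cacna1a were Trib2, AI115009 and Lgmn, and nearest to Cacna1c were Fbxw9, Pigp and Gpc1.

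As Runx3 is the mutated gene, the promoters of members were searched for the Runx core, TGTGGT, on both strands. RefSeq promoter windows of 250 bases before the start (GRCm38.p6) matched 7 members with 10 windows, those of Cacna1s, Cacna1e, Cacna1b, Cacna1c, Cacna1d, Cacna1i and Cacna1f. Promoters of Cacna1a, Cacna1g and Cacna1h were not searched here. The motif was in 1 of 10 windows, against 14% of 32851 windows of all genes. The windows of Cacna1i and Cacna1s, both near 0 in mutant PV neurons, did not hold these letters and are shown 5′ to 3′ beside the Cacna1c window that held them, 72 bases before the start on the reverse strand, in capitals as ACCACA. Neither a match nor its absence shows binding.
Cacna1i (chr15:80286988-80287237, plus strand): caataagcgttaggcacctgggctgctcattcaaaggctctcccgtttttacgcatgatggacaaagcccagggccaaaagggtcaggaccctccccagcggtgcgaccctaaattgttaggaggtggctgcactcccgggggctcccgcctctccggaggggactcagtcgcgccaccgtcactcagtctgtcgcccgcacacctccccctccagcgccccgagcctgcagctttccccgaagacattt
Cacna1s (chr1:136052561-136052810, plus strand): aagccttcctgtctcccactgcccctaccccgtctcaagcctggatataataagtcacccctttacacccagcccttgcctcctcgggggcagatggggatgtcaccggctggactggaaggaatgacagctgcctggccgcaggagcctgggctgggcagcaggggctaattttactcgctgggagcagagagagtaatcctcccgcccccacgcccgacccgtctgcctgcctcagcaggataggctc
Cacna1c (chr6:119196410-119196659, minus strand): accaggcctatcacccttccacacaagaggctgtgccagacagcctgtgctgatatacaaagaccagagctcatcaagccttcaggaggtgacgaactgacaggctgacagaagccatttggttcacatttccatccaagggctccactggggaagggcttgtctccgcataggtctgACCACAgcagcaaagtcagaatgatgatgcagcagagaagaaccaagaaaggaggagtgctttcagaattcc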

How the data were processed

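RNA-seq was measured in 9 libraries of sorted DRG neurons, 3 per group. Per the labels' protocols, RNA was amplified with the Ovation V2 kit before poly-A selected, single-end TruSeq libraries were made. The authors used the mm10 build and edgeR, per the submitters' processing notes. The authors' aligner, their counter, the form of their edgeR test and any use of strand were not given in the sources used here. The authors deposited 5 comparison tables of 23038 genes with 1 RPKM per group, the log2 fold change, the average log2 CPM, raw and adjusted p-values and a flag (a score of -1, 0 or 1). The TrkC values stand under a header naming Rx3 and equal those headed by the first 3 samples in another table. No values per library are in these tables.

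The deposited RPKM equals the mean over 3 libraries of the reads scaled by length and library total, with 0 reads counted as 1. Whole reads and gene lengths were searched for the combination that gives all deposited values to 15 digits. For members, lengths up to 16000 bases were searched. For other genes a range set by the annotated exon length came first, then 100 to 16000 bases where that gave no answer. A gene at 0 or 1 read in every library of a group had its length fixed by that value. Ryr3, at 16758 bases, was longer than 16000. Whole multiples of a length give the same values, and the shortest was taken. Whether a library held 0 or 1 read was then settled from the deposited mean log2 CPM of the 3 comparisons, which the recovered reads gave, with a prior count of 2 and a dispersion of 0.05, to within 6e-12 for all 137 genes recovered. In simulated data 100 of 100 genes were recovered with the right reads. The simulation left out the highest values and the longest genes, such as P2rx3 at 204 RPKM, Pvalb at 353 RPKM and Ryr3 at 16758 bases. For those the check is the mean log2 CPM alone. Listed genes with too many reads to search, Ntrk3, Etv1 and Stmn2 among them, have no values per library. Recovered RPKM and RPM count a library without reads as 0. Depth was 4.51 to 13.7 M counted reads. Reads of amplified cDNA carry no molecular identifiers, so exact intervals cover counting error only.

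A gene was called at an adjusted p (Benjamini-Hochberg over all genes) under 0.05 as the authors deposited it from edgeR. A count model was not fitted here, since reads were recovered for the members and lists alone. Fold changes run TrkC or wild-type PV over mutant PV, and wild-type PV over TrkC. Named were all members, the 6 called genes of the partner list with the smallest p, and Runx3. The 3 nearest profiles of members called in at least 2 comparisons were named too. Pvalb and Ntrk3, which the rule also names, are in the closing section. Cacnb2 and Cacna2d3 were added after their values were seen. Ntrk2, P2rx3, Ren2 and Tnni1 were singled out of the marker lists in the same way. The members, lists and tests were chosen with earlier results of these data known. Alternatives were other thresholds, the authors' flag, a filter on low values, pseudocounts, and leaving out each library. Sequences are from RefSeq promoters (GRCm38.p6) and GENCODE M21 transcripts (GRCm38), whose longest reading frame was searched for the pore motif. Python 3.11.15, numpy 2.4.6, pandas 2.3.3, scipy 1.17.1, numba 0.67.0 and matplotlib 3.10.9 were used.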

Additional observations from a re-analysis of the deposited data

How the results depend on the processing

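No paired analysis was possible because the deposited columns carry no replicate numbers and nothing ties samples across groups. By the authors' flag, the members called numbered 3 in TrkC over mutant PV, 2 in wild-type PV over mutant PV and 0 in wild-type PV over TrkC, where an adjusted p under 0.05 called 5, 7 and 1. With a fold of 2 or more required as well, wild-type PV over mutant PV called 4 and wild-type PV over TrkC 0. At an adjusted p under 0.01, wild-type PV over TrkC called 0. Adjusted over genes with a mean log2 CPM of 0 or more, it called 2. In that comparison an unadjusted edgeR p under 0.05 was given to 4 of 10 members by the authors' deposited table, and the share of all genes at that threshold was not computed. No called fold change of a member changed sign under any alternative. Leaving out 1 library at a time, with folds from mean recovered RPM + 0.1, moved 13 of 180 fold changes by more than the spread from the deposited value, all of them for Cacna1i and Cacna1g, and Cacna1i moved as much with all libraries kept (7.49 and 7.54); adjusted p-values were not recomputed. Cacna1h ranged from -3.67 to -2.86 for wild-type PV over mutant PV and from -3.54 to -2.83 for TrkC over mutant PV. Cacna1i ranged from 7.26 to 8.09 and from 7.32 to 8.15, and Cacna1g from 3.25 to 3.67 and from 2.40 to 2.76. Without the deepest mutant PV library, which held all 4 reads of Cacna1s in that group, Cacna1s was at 3.82 and 4.98, against 2.79 and 3.95 with all libraries. The uncalled Cacna1d lay between -0.60 and 0.0042 for TrkC over mutant PV. A pseudocount of 1 RPKM moved 9 of 30 fold changes, one of 0.1 moved 6, and the ratio of group RPKM moved 2. The ratio of mean recovered RPM, an alternative chosen after seeing the data, also moved 2. The depth of the shallowest mutant PV library, 4.51 M reads, limits what a count of 0 shows, more so for Cacna1f and Cacna1s than for Cacna1i. Mean RPM in wild-type PV and TrkC neurons were 0.533 and 1.01 for Cacna1f and 1.31 and 3.05 for Cacna1s. For Cacna1i they were 27.2 and 28.2.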

Other observations

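Of the genes that define the groups, Pvalb had a deposited RPKM of 67.0 in mutant PV, 200.4 in wild-type PV and 353 in TrkC neurons. Ntrk3, which encodes TrkC, had 25.4 in mutant PV, 81.6 in wild-type PV and 141 in TrkC neurons. Within the recovered libraries, Pvalb was at 91.0, 68.2 and 36.4 RPM in mutant PV, 178, 222 and 185 in wild-type PV and 303, 390 and 337 in TrkC libraries, so that no 2 groups overlapped.

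Endothelial and mural genes summed to between 17.1 and 41.7 RPM in mutant PV, between 6.25 and 14.5 in wild-type PV and between 10.5 and 17.3 in TrkC libraries. Genes of immature neurons, of which 9 of 10 had recovered reads, summed to between 1846 and 2666 in mutant PV, between 1128 and 1182 in wild-type PV and between 1093 and 1885 in TrkC libraries. The mutant PV group was also the youngest by label, and the part of age in these sums was not tested.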
